A study of Mus musculus with 8 samples.

Results

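The Myc, Max and Mxd network was read out as the transcripts of 10 genes, *Myc*, *Mycn*, *Mycl*, *Max*, *Mxd1*, *Mxd3*, *Mxd4*, *Mxi1*, *Mnt* and *Mlx*, taken by symbol from the 54532 genes of the table. All 10 had enough reads to be among the 13560 genes tested. RNA-Seq was performed on 4 libraries of Zeb1-/- EpCAM+ and 4 libraries of Zeb1-/- EpCAM- LSK cells (Lin-, C-KIT+, SCA-1+), the bone marrow gate for hematopoietic stem and progenitor cells (HSPCs). Both fractions came from C57BL/6 mice aged 8 to 12 weeks that carried floxed *Zeb1* and Mx1-Cre, with Cre induced by pIpC and cells taken 14 days after the last dose. Mx1-Cre is driven by an interferon-responsive promoter and is active in many cell types, and with no control mice in the comparison all differences below are between 2 Zeb1-/- fractions. All libraries are of the same genotype. The labels give 4 mice per genotype and do not say whether libraries with the same number share a mouse. Same-numbered libraries deviated together from their fraction means, as given below, and the main test does not match them. Its p-values therefore measure the spread between these libraries, taken as unmatched.

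Myc, N-Myc (*Mycn*) and L-Myc (*Mycl*) are bHLH leucine zipper proteins that bind E-box DNA as dimers with Max and activate genes of ribosome assembly, nucleotide synthesis and cell growth. The Mxd proteins (Mxd1, Mxd3, Mxd4 and Mxi1) and Mnt compete for Max and recruit Sin3 and histone deacetylases to the same sites, while Mlx pairs with some Mxd proteins and with the glucose-sensing Mondo factors. In hematopoietic stem cells Myc is known for its part in the balance between self-renewal and differentiation, and N-Myc overlaps with it in function.

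Promoter sequence was matched in RefSeq (GRCm38.p6) for 9 of the 10 members, the exception being *Myc*, with 11 start sites since *Mxi1* has 3. In the 250 bases before and the first 10 bases after each start, CACGTG, the E-box that Myc-Max dimers prefer and which reads the same on both strands, was found at 4 members, *Max*, *Mxd4*, *Mnt* and *Mlx*, and in 6.34% of 32851 promoter windows of the same length. CACCTG, or CAGGTG when read on the other strand, the E-box form that Zeb1 binds, was found at 1 member, *Mycl*, and in 17.8% of the windows. These shares count windows, not genes. Counted by gene, CACGTG was found for 10.7% of 9740 matched tested genes. Neither form overlaps the other. The 5 windows with a match are shown, because the members differ in which E-box lies next to the start, with the E-box in capitals and each sequence on the strand of its gene. They are chr12:76962239-76962498 (minus strand), chr11:101087040-101087299 (plus), chr11:74830674-74830933 (plus), chr5:34187701-34187960 (minus) and chr4:122995681-122995940 (plus).
*Max*: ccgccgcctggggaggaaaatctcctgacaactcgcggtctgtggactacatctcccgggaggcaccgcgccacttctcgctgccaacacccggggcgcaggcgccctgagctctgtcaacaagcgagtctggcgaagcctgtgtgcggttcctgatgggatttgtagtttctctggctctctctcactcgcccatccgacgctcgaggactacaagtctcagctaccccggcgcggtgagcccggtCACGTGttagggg
*Mlx*: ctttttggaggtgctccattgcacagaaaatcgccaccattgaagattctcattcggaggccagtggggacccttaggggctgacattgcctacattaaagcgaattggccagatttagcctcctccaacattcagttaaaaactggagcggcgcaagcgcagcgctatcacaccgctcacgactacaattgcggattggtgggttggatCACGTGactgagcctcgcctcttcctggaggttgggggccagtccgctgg
*Mnt*: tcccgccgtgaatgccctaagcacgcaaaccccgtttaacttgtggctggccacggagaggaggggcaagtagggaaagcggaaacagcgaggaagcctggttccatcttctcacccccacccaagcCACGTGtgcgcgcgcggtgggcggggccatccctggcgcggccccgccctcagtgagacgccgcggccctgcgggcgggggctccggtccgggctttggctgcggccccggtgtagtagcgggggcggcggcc
*Mxd4*: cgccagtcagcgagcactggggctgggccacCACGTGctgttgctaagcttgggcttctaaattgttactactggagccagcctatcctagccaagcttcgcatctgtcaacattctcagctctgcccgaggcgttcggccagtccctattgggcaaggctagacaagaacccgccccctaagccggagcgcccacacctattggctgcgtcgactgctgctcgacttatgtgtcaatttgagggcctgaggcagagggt
*Mycl*: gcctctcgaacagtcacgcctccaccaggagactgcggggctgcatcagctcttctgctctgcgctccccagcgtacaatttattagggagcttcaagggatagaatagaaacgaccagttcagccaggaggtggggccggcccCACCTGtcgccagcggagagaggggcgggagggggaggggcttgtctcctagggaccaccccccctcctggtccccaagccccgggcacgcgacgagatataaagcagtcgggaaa
The E-box starts 3 bases before the RefSeq transcription start in *Max* and 40 before it in *Mlx*. It starts 123 bases before it in *Mnt*, 219 in *Mxd4* and 106 in *Mycl*. For *Mycl* the RefSeq start lies downstream of the start of the gene as counted (122995652). The whole *Mycl* window therefore lies inside the counted gene. A match describes these letters only.

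The sort and the libraries were checked first. *Epcam* was higher in Zeb1-/- EpCAM+ libraries (161 to 234 CPM, counts scaled to the TMM-adjusted library size, against 1.25 to 8.99), and *Zeb1* gave 14.8 to 23.7 CPM there and 9.49 to 14.0 in Zeb1-/- EpCAM- libraries, reads that gene counts cannot assign to a deleted or an intact allele. Between 14114491 and 17073546 reads were counted per library. Of 14 stem and progenitor markers, 10 were higher in Zeb1-/- EpCAM+ HSPCs, *Kit* was detected in all 8 libraries (155 to 328 CPM) and *Ly6a*, the Sca-1 gene, ran from 15.7 to 71.7 CPM in Zeb1-/- EpCAM- and from 116 to 351 CPM in Zeb1-/- EpCAM+ libraries. Of all tested genes, 21.8% were called higher and 20.8% lower in Zeb1-/- EpCAM+ libraries, and the marker counts are given beside these shares. Markers of several other cell types also differed between the fractions, while the count for megakaryocytes was near these shares. The summed CPM of 10 conventional dendritic cell markers was 1212 to 13248 in Zeb1-/- EpCAM+ and 314 to 565 in Zeb1-/- EpCAM- libraries, whereas 10 neutrophil markers reached 1098 to 1854 against 11948 to 18579.7 and 9 erythroid markers 233 to 396 against 2155 to 7061. Among tested markers, 8 of 9 for conventional dendritic cells, 3 of 5 for plasma cells, 2 of 5 for B cells, 2 of 2 for T cells and 1 of 6 for megakaryocytes were higher, and 5 of 10 for neutrophils, 4 of 6 for monocytes and 4 of 6 for mast cells and basophils were lower. For erythroid cells 1 of 9 was higher and 6 lower, and for plasmacytoid dendritic cells 2 of 6 were higher and 1 lower. The summed CPM of 8 plasma cell markers was 3978 in Zeb1-/- EpCAM+ replicate 1, against 453, 674 and 389 in replicates 2 to 4. In Zeb1-/- EpCAM- libraries that sum was 171 to 259. *Nkg7*, the 1 tested natural killer cell marker, had an edgeR adjusted p = 0.353. *Pax5* and *Ebf1* (B cells) and *Cd3e*, *Cd3d* and *Cd3g* (T cells) stayed below 1 CPM in all 8 libraries. In these bulk libraries, fewer cells of a type and less RNA per cell cannot be told apart.

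Of the 10 members, 7 differed between the fractions in edgeR's quasi-likelihood test at an adjusted p below 0.05, where 42.6% of all tested genes did. *Mycl*, *Mycn*, *Mxd3* and *Mxd1* were higher in Zeb1-/- EpCAM+ HSPCs (21.8% of all tested genes were called higher), and *Mlx*, *Myc* and *Max* were lower (20.8%). *Mnt*, *Mxd4* and *Mxi1* did not pass. The 4 CPM values of one fraction all lay above those of the other for 5 members, *Mycl*, *Mycn*, *Mxd1*, *Mxd3* and *Mlx*, a state that 40.1% of tested genes shared. The median log2 fold change (Zeb1-/- EpCAM+ over Zeb1-/- EpCAM-) was 0.29 over the members and 0.02 over all tested genes. The split of calls moved with the scaling, and with library totals or upper-quartile factors 5 members were higher and 1 was lower. Without Zeb1-/- EpCAM- replicate 3 or 4, or without Zeb1-/- EpCAM+ replicates 1 and 4 together, 1 member was lower, *Mlx*.

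**Figure D1:**
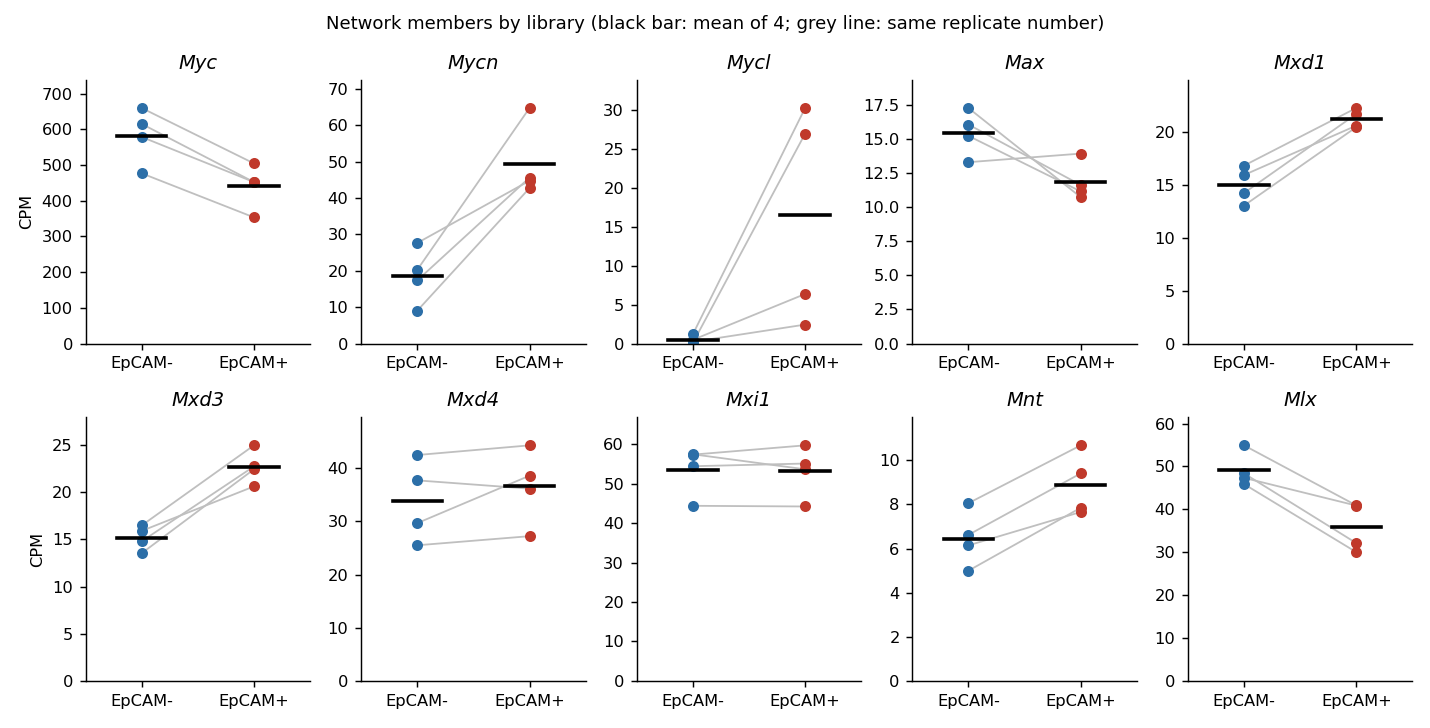
CPM (vertical axis, linear, from 0) of each of the 10 members in the 4 Zeb1-/- EpCAM- (blue) and 4 Zeb1-/- EpCAM+ (red) libraries, with the mean of 4 as a black bar and libraries of the same replicate number joined by a grey line. *Mycn*, *Mycl*, *Mxd1* and *Mxd3* are higher in every Zeb1-/- EpCAM+ library, *Mlx* is lower in every one, and *Myc* falls along all 4 lines although its fractions overlap.

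*Myc* (ENSMUSG00000022346, chromosome 15 of GRCm38.p6, 61985391 to 61990374, plus strand), the broadly expressed activator of the family, was downregulated in Zeb1-/- EpCAM+ HSPCs. It stood at 477, 578, 659 and 615 CPM in Zeb1-/- EpCAM- replicates 1 to 4 and at 353, 452, 504 and 452 CPM in Zeb1-/- EpCAM+ replicates 1 to 4. The fractions overlapped, since the highest Zeb1-/- EpCAM+ library lay above the lowest Zeb1-/- EpCAM- library, but within each number the Zeb1-/- EpCAM+ library was the lower one. The means were 582 ± 77.9 CPM in Zeb1-/- EpCAM- and 440 ± 63.1 CPM in Zeb1-/- EpCAM+ libraries (SD, n = 4), with a log2 fold change of -0.40 (SE 0.13, edgeR adjusted p = 0.0265), and the log2 ratio ran from -0.44 to -0.36 over the 4 numbered pairs. The direction was the same in all 17 alternatives, but the call was lost in 6 of them, namely with library totals (adjusted p = 0.0684), with upper-quartile scaling (adjusted p = 0.0688), without Zeb1-/- EpCAM- replicate 3 (adjusted p = 0.0777) or 4 (adjusted p = 0.0599), without Zeb1-/- EpCAM+ replicate 1 (adjusted p = 0.0512) and without Zeb1-/- EpCAM+ replicates 1 and 4 (adjusted p = 0.136). Matching libraries by number in the edgeR fit kept the *Myc* call and narrowed its SE. That blocked fit gave *Myc* a log2 fold change of -0.40 (SE 0.049, edgeR adjusted p = 0.000387). *Pvt1* (chromosome 15, 62037986 to 62378096), the noncoding gene that starts downstream of *Myc* on the same strand, was more strongly reduced. It gave 6.30, 8.21, 9.21 and 14.4 CPM in Zeb1-/- EpCAM- and 1.05, 1.53, 2.51 and 3.37 CPM in Zeb1-/- EpCAM+ replicates 1 to 4, without overlap. Its log2 fold change was -2.17 (SE 0.37, edgeR adjusted p = 0.00134).

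*Mycn* (ENSMUSG00000037169, chromosome 12, 12936093 to 12941914, minus strand), which encodes N-Myc, moved in the other direction. Its CPM were 27.7, 9.03, 20.3 and 17.4 in Zeb1-/- EpCAM- and 44.8, 42.8, 64.8 and 45.7 in Zeb1-/- EpCAM+ replicates 1 to 4. All Zeb1-/- EpCAM+ libraries lay above all Zeb1-/- EpCAM- libraries, with replicate 3 the highest of its fraction and Zeb1-/- EpCAM- replicate 2 the lowest of all 8. *Mycn* was 2.66-fold higher (49.5 ± 10.3 against 18.6 ± 7.70 CPM, SD, n = 4), a log2 fold change of 1.41 (SE 0.28, edgeR adjusted p = 0.00282) that ranged from 1.17 to 1.66 with 1 library left out. The summed stem and progenitor markers moved with it, at 3160 to 3463 CPM in Zeb1-/- EpCAM+ and 1752 to 2557 CPM in Zeb1-/- EpCAM- libraries, and their part in the *Mycn* difference was not tested.

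*Mycl* (ENSMUSG00000028654, chromosome 4, 122995652 to 123002485, plus strand), which encodes L-Myc and is known for its expression in dendritic cells, showed the largest log2 fold change of the 10 members. It had 19, 3, 7 and 1 counts in Zeb1-/- EpCAM- replicates 1 to 4, or 1.19, 0.22, 0.48 and 0.07 CPM, and 463, 43, 114 and 416 counts in Zeb1-/- EpCAM+ replicates 1 to 4, or 30.3, 2.44, 6.37 and 27.0 CPM. The Zeb1-/- EpCAM+ libraries fell into a higher pair, replicates 1 and 4, and a lower pair, replicates 2 and 3, and all were above every Zeb1-/- EpCAM- library. The log2 fold change was 4.99 (SE 0.91, edgeR adjusted p = 0.00197), against a fraction with so few reads that the size of the fold is poorly fixed, and it ran from 4.51 to 5.92 with 1 library left out. The conventional dendritic cell markers fell into the same pairs of Zeb1-/- EpCAM+ libraries, at a summed 12659, 1212, 3554 and 13248 CPM in replicates 1 to 4. *Xcr1*, a chemokine receptor of that cell type, gave 147, 11.5, 35.8 and 131 CPM there. Without replicates 1 and 4 of Zeb1-/- EpCAM+ the log2 fold change of *Mycl* was 3.09 (SE 0.69, edgeR adjusted p = 0.0125). The part of these cells in the *Mycl* difference was not tested.

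**Figure D2:**
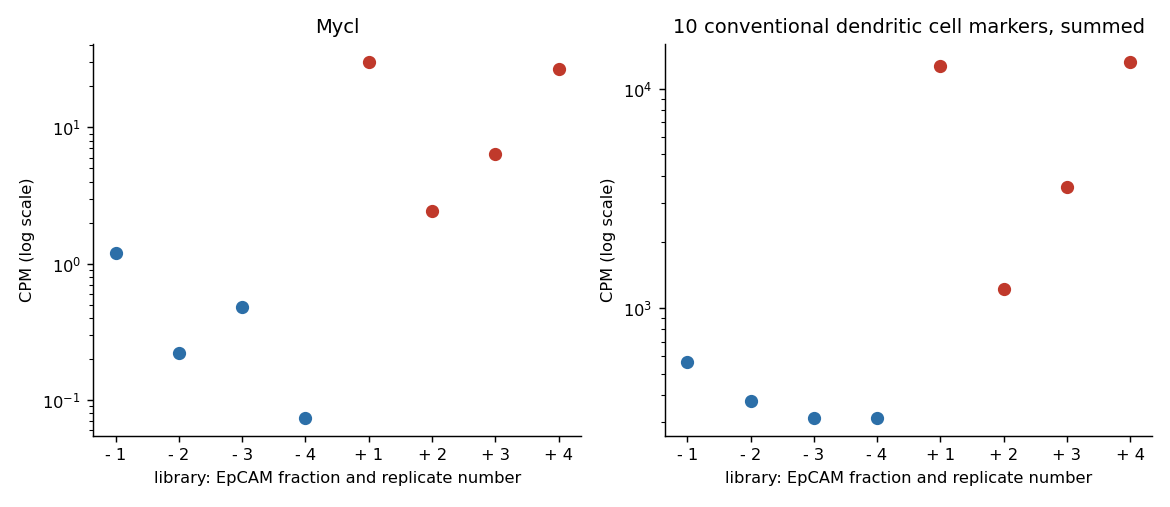
CPM on a log scale (vertical axis) of *Mycl* (left) and of 10 conventional dendritic cell markers summed (right) in each library (horizontal axis, EpCAM fraction and replicate number, blue Zeb1-/- EpCAM-, red Zeb1-/- EpCAM+). In both panels Zeb1-/- EpCAM+ replicates 1 and 4 are the 2 highest libraries and replicate 2 is the lowest of its fraction.

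Levels of different genes were compared as CPM per kb of the gene length in the table. *Myc* was the first member in both fractions, with 162 ± 23.2 CPM per kb in Zeb1-/- EpCAM+ and 214 ± 28.7 CPM per kb in Zeb1-/- EpCAM- libraries (SD, n = 4), and its ranges did not overlap those of the next member, *Mlx* (18.0 ± 2.87 and 24.6 ± 2.00 CPM per kb, SD, n = 4). In Zeb1-/- EpCAM+ libraries the order of levels went on with *Mycn* (15.0 CPM per kb), *Mxd3* (9.58), *Mxi1* (9.46), *Mxd4* (4.31), *Mycl* (4.09), *Max* (3.30), *Mxd1* (3.00) and *Mnt* (1.92). The ranges of these neighbours overlapped for *Mlx* and *Mycn*, *Mxd3* and *Mxi1*, and each step from *Mxd4* to *Mxd1*. In Zeb1-/- EpCAM- libraries *Mlx* was followed by *Mxi1* (9.51 CPM per kb), *Mxd3* (6.41), *Mycn* (5.64), *Max* (4.30), *Mxd4* (3.99), *Mxd1* (2.12), *Mnt* (1.39) and *Mycl* (0.12), with overlap at each step from *Mxd3* to *Mxd4*. With the authors' FPKM, which rest on other lengths, 10 of the 20 places in the 2 orders were the same, and *Myc* and *Mlx* stayed first and second in both.

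*Myc* made up most of the summed level of the 3 Myc genes in every library. Its share of the CPM per kb was 95.3, 98.7, 97.5 and 97.7% in Zeb1-/- EpCAM- and 86.0, 92.5, 89.7 and 89.0% in Zeb1-/- EpCAM+ replicates 1 to 4. *Mycn* held 1.27 to 4.56% in Zeb1-/- EpCAM- and 7.21 to 9.50% in Zeb1-/- EpCAM+ libraries, and *Mycl* held 0.01 to 0.16% and 0.34 to 4.96%. The fractions did not overlap for any of the 3 shares. The summed level of the 3 genes was 220 ± 27.6 CPM per kb in Zeb1-/- EpCAM- and 181 ± 23.1 CPM per kb in Zeb1-/- EpCAM+ libraries (SD, n = 4), and here the fractions overlapped.

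*Max* (ENSMUSG00000059436, chromosome 12, 76937269 to 76962201, minus strand) encodes the partner that Myc, Mxd and Mnt proteins share. Its CPM were 13.3, 16.1, 17.3 and 15.2 in Zeb1-/- EpCAM- and 13.9, 11.6, 10.7 and 11.2 in Zeb1-/- EpCAM+ replicates 1 to 4. The fractions overlapped through replicate 1, the only number in which the Zeb1-/- EpCAM+ library was not the lower one. The log2 fold change was -0.38 (SE 0.13, edgeR adjusted p = 0.0355), and it stayed between -0.47 and -0.33 with 1 library left out. The call was lost when any 1 of Zeb1-/- EpCAM- replicates 2 (adjusted p = 0.0652), 3 (adjusted p = 0.0949) and 4 (adjusted p = 0.0558) or Zeb1-/- EpCAM+ replicates 2 (adjusted p = 0.0730), 3 (adjusted p = 0.0962) and 4 (adjusted p = 0.0785) was left out, and in 10 of 17 alternatives in all.

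Among the Max-binding repressors, *Mxd3* and *Mxd1* were upregulated in Zeb1-/- EpCAM+ HSPCs. *Mxd3* (ENSMUSG00000021485, chromosome 13, 55325168 to 55329823, minus strand), the Mxd gene known for expression in dividing cells, gave 16.5, 14.8, 15.9 and 13.5 CPM in Zeb1-/- EpCAM- and 25.0, 22.7, 20.6 and 22.4 CPM in Zeb1-/- EpCAM+ replicates 1 to 4. *Mxd1* (ENSMUSG00000001156, chromosome 6, 86647042 to 86669161, minus strand), the Mxd gene known for its rise when myeloid cells mature, gave 16.8, 14.2, 15.9 and 13.0 CPM against 22.2, 21.7, 20.6 and 20.4 CPM. For both genes the fractions were separate, and the libraries of each fraction lay close together. *Mxd3* was 1.49-fold higher (log2 fold change 0.58, SE 0.10, edgeR adjusted p = 0.00189) and *Mxd1* 1.42-fold higher (log2 fold change 0.50, SE 0.11, edgeR adjusted p = 0.00426), and both kept their call in all 17 alternatives. *Mxd3* overlaps *Prelid1* on the opposite strand, which had 53869 reads over the 8 libraries against 2379 for *Mxd3*, and since the libraries are not stated to be stranded, reads of the 2 genes cannot be told apart where they overlap. *Prelid1* itself had a log2 fold change of -0.34 (edgeR adjusted p = 0.00477), opposite in sign to *Mxd3*.

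*Mnt* (ENSMUSG00000000282, chromosome 11, 74830920 to 74845725, plus strand), the repressor present in most cell types, missed the threshold. It gave 4.99, 6.14, 8.05 and 6.62 CPM in Zeb1-/- EpCAM- and 7.85, 7.65, 10.7 and 9.40 CPM in Zeb1-/- EpCAM+ replicates 1 to 4, with overlap between the fractions and a higher Zeb1-/- EpCAM+ value in every number. The log2 fold change was 0.46 (SE 0.19, edgeR adjusted p = 0.0661), and with the replicate number as a block it was 0.47 (SE 0.14, edgeR adjusted p = 0.0217). *Mxd4* (chromosome 5, 34173883 to 34187720) ran from 25.5 to 42.5 CPM in Zeb1-/- EpCAM- and from 27.2 to 44.3 CPM in Zeb1-/- EpCAM+ libraries (log2 fold change 0.11, SE 0.18, edgeR adjusted p = 0.644). *Mxi1* (chromosome 19, 53310506 to 53375810) ran from 44.4 to 57.5 CPM and from 44.2 to 59.7 CPM (log2 fold change -0.01, SE 0.11, edgeR adjusted p = 0.964). For both genes the fractions covered nearly the same range.

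**Figure D3:**
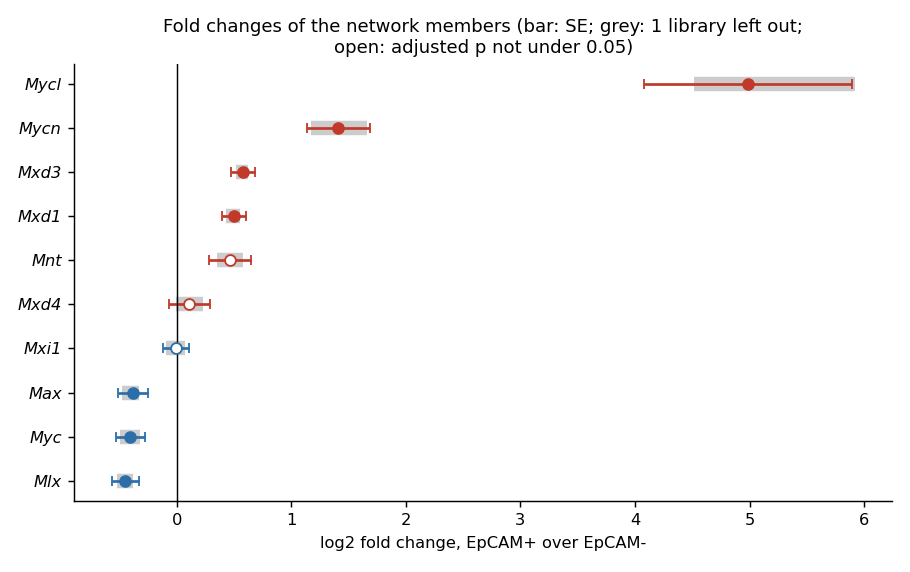
Log2 fold change of each member between Zeb1-/- EpCAM+ and Zeb1-/- EpCAM- libraries (horizontal axis), with the SE as error bars and the range over fits that leave out 1 library in grey. Filled points have an edgeR adjusted p below 0.05, open points do not. *Mycl* lies at 4.99 and *Mycn* at 1.41, the other members between -0.45 and 0.58.

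The summed level of the 5 repressors was then set against that of *Myc*, both as CPM per kb. The repressors amounted to 14.3, 10.3, 10.1 and 9.81% of *Myc* in Zeb1-/- EpCAM- and to 23.4, 15.9, 15.1 and 17.0% in Zeb1-/- EpCAM+ replicates 1 to 4. Replicate 1 was the highest of each fraction, and the fractions did not overlap. This holds for *Myc* alone. Set against the summed level of *Myc*, *Mycn* and *Mycl*, the fractions overlapped. Zeb1-/- EpCAM- replicate 1 had 25.1 CPM per kb of repressors against 184, and Zeb1-/- EpCAM+ replicate 3 had 28.0 against 207. The mean log2 ratio of the repressors to *Myc* alone was -3.19 ± 0.26 in Zeb1-/- EpCAM- and -2.51 ± 0.28 in Zeb1-/- EpCAM+ libraries (SD, n = 4). The difference of 0.68 in this ratio stayed between 0.54 and 0.80 with 1 library left out and was 0.72 with the authors' FPKM. The part of *Myc* and that of the repressors can be read separately, since the repressors summed to 21.9 to 25.1 CPM per kb in Zeb1-/- EpCAM- and to 26.4 to 30.4 CPM per kb in Zeb1-/- EpCAM+ libraries.

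**Figure D4:**
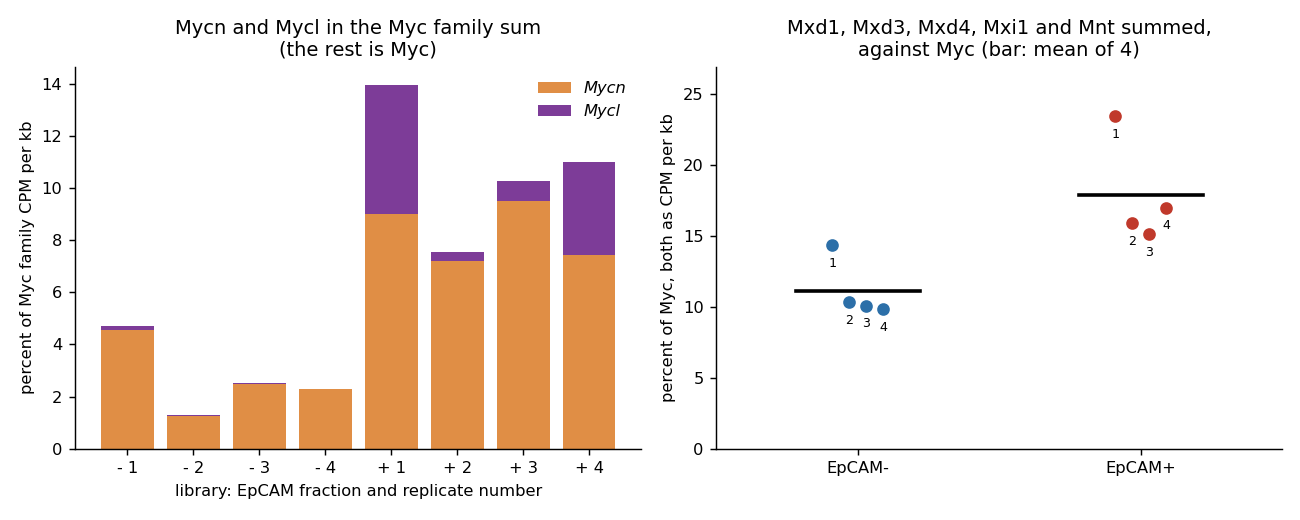
Left, percent of the summed CPM per kb of *Myc*, *Mycn* and *Mycl* held by *Mycn* and *Mycl* in each library (the rest is *Myc*). Right, summed CPM per kb of *Mxd1*, *Mxd3*, *Mxd4*, *Mxi1* and *Mnt* as a percent of *Myc*, 1 point per library labelled by replicate number, with the mean of 4 as a bar. The Zeb1-/- EpCAM+ libraries lie between 15.1 and 23.4% and the Zeb1-/- EpCAM- libraries between 9.81 and 14.3%.

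*Mlx* (ENSMUSG00000017801, chromosome 11, 101087277 to 101092207, plus strand), the Max-like partner of Mondo factors, was downregulated. It gave 54.9, 47.4, 48.4 and 45.9 CPM in Zeb1-/- EpCAM- and 40.9, 40.9, 32.1 and 30.0 CPM in Zeb1-/- EpCAM+ replicates 1 to 4. The fractions did not overlap, and replicates 3 and 4 were the lower pair in Zeb1-/- EpCAM+. The log2 fold change was -0.45 (SE 0.12, edgeR adjusted p = 0.0118), with a call in all 17 alternatives. *Mlx* overlaps *Psmc3ip* on the opposite strand (6277 reads against 5238 for *Mlx*), whose log2 fold change was -0.23 (edgeR adjusted p = 0.0791), so reads in the overlap are uncertain here too. Its partner *Mlxip* (MondoA) was higher, at 66.5 to 80.7 CPM in Zeb1-/- EpCAM- and 87.4 to 93.7 CPM in Zeb1-/- EpCAM+ libraries (log2 fold change 0.33, SE 0.08, edgeR adjusted p = 0.00643), a call that was lost without Zeb1-/- EpCAM+ replicates 1 and 4. *Mga*, a Max partner of the T-box class, had a log2 fold change of 0.13 (SE 0.11, edgeR adjusted p = 0.395). *Mlxipl* (ChREBP), the other Mondo factor, was below the filter with 2 to 3 counts in Zeb1-/- EpCAM- and 6 to 10 counts in Zeb1-/- EpCAM+ libraries.

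Of 9 tested targets of Mondo and Mlx, 3 rose and 2 fell, where 21.8% of all tested genes were higher and 20.8% lower, so the counts do not set these targets apart. *Txnip*, an arrestin-like inhibitor of glucose uptake and the best known MondoA target, ran from 105 to 201 CPM in Zeb1-/- EpCAM- and from 192 to 468 CPM in Zeb1-/- EpCAM+ libraries, and it, its relative *Arrdc4* and *Klf10* were those that rose. By smallest adjusted p the list was led by *Pklr*, the pyruvate kinase of liver and red cells (log2 fold change -5.93, SE 0.55, edgeR adjusted p = 0.000145), *Klf10* (0.54, SE 0.11, edgeR adjusted p = 0.0036) and *Acly*, which makes cytosolic acetyl-CoA (-0.33, SE 0.08, edgeR adjusted p = 0.00736). *Pklr* ran from 12.8 to 31.9 CPM in Zeb1-/- EpCAM- and from 0 to 0.78 CPM in Zeb1-/- EpCAM+ libraries, beside erythroid markers that were higher in Zeb1-/- EpCAM-, and their part in it was not tested. Without Zeb1-/- EpCAM+ replicates 1 and 4, 1 of these targets was lower. *Txnip* and *Arrdc4* were named after their values were seen. The list median was 0.01, close to the 0.02 of all tested genes.

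The lists of cofactors and regulators are given beside the shares of all tested genes, 21.8% higher and 20.8% lower, and for none of the 4 lists is the count read as a result about the list. Of 18 Myc coactivators 2 were higher and 6 lower (list median -0.13), led by the ATPases *Ruvbl2* (log2 fold change -0.72, SE 0.09, edgeR adjusted p = 0.000358) and *Ruvbl1* (-0.40) and the chromatin remodelling subunit *Actl6a* (-0.34). Of 20 corepressor genes that act with Mxd and Mnt 3 were higher and 6 lower (list median 0.02), led by the deacetylase *Hdac2* (-0.37), *Brms1* (-0.36) and *Sap30* (-0.32), subunits of the Sin3 complex. Of 21 genes of Myc protein turnover 3 were higher and 6 lower (list median -0.05), with the kinase *Aurka*, which protects Myc proteins from degradation, at -0.51, the deubiquitinase *Usp22* at 0.41 and the mitotic kinase *Plk1* at -0.56. Of 15 tested regulators of *Myc* transcription, a list that holds *Pvt1*, 2 were higher and 2 lower (list median 0.05), and with the replicate number as a block 4 were higher and 3 lower. After *Pvt1* it was led by the Wnt effector *Tcf7l2* (log2 fold change 0.89, SE 0.16, edgeR adjusted p = 0.00177) and *Stat3* (0.65, SE 0.15, edgeR adjusted p = 0.00625). Without Zeb1-/- EpCAM+ replicates 1 and 4, 1 coactivator was higher and 3 lower, 1 corepressor higher and 3 lower, and 2 turnover genes higher and 2 lower. With library totals or upper-quartile scaling, 3 coactivators and 3 turnover genes were lower and 4 regulators of *Myc* transcription were higher, as they also were with a filter of 10 counts in every library. *Fubp1*, the other regulator that was lower and named after its value was seen, lost its call with library totals, with upper-quartile scaling, with both other filters, without Zeb1-/- EpCAM- replicate 3 or 4, without Zeb1-/- EpCAM+ replicate 1, 2 or 4 and without Zeb1-/- EpCAM+ replicates 1 and 4 together.

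Genes that Myc is known to activate were lower as a group in Zeb1-/- EpCAM+ HSPCs. The list was chosen with earlier results of these data known, and many of its genes act in ribosome assembly. From the same libraries the authors had already reported reduced ribosome biogenesis and rRNA processing. The count below is therefore not independent of that report, and Myc activity itself was not tested. Of 59 tested, 46 (78.0%) were lower and 3 higher, against 20.8% and 21.8% of all tested genes, with a list median of -0.55. *Tfrc*, the transferrin receptor, gave 75.3, 78.4, 111 and 130 CPM in Zeb1-/- EpCAM- and 17.7, 17.6, 18.4 and 20.5 CPM in Zeb1-/- EpCAM+ replicates 1 to 4 (log2 fold change -2.41, SE 0.17, edgeR adjusted p = 5.61e-05). *Srm*, spermidine synthase, ran from 478 to 629 CPM in Zeb1-/- EpCAM- and from 244 to 282 CPM in Zeb1-/- EpCAM+ libraries (-1.10, SE 0.10, edgeR adjusted p = 0.000134). *Hspd1*, the mitochondrial chaperonin, ran from 1049 to 1296 CPM and from 563 to 631 CPM (-0.92, SE 0.09, edgeR adjusted p = 0.000165). For all 3 the fractions were far apart. The 3 targets that rose were *Slc2a1*, a glucose transporter (0.60), *Tert*, the telomerase reverse transcriptase (1.36), and *Prdx4*, a peroxiredoxin (0.43), named after their values were seen, and with the replicate block 5 rose and 48 fell. The count of lower targets stayed between 44 and 50 with 1 library left out and was 38 without Zeb1-/- EpCAM+ replicates 1 and 4. Markers of erythroid cells, which take up iron through *Tfrc*, and of neutrophils were higher in Zeb1-/- EpCAM- libraries by the sums given above, and their part in these counts was not tested. CACGTG lay in the promoter window of 14 of the 50 activated targets matched in RefSeq (28.0%), among them 11 of the 39 matched that were lower (28.2%) and 3 of the 11 that were not (27.3%), and of 10.7% of 9740 matched tested genes.

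**Figure D5:**
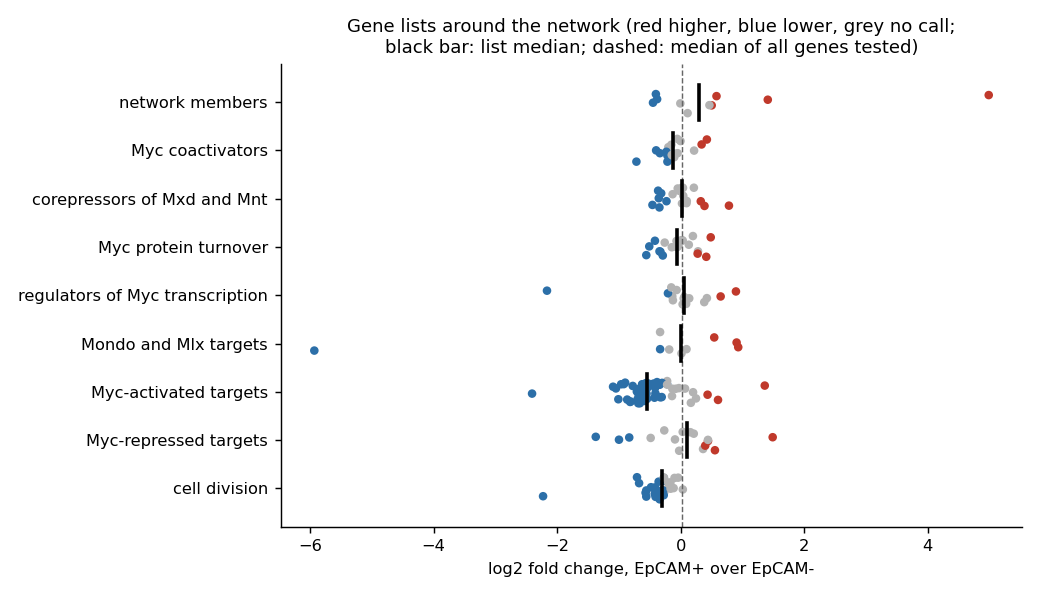
Log2 fold change between Zeb1-/- EpCAM+ and Zeb1-/- EpCAM- libraries (horizontal axis) of each tested gene in 9 lists, 1 point per gene (red higher, blue lower, grey no call), with list medians as black bars and the median of all tested genes (0.02) as a dashed line. The Myc-activated targets have a median of -0.55 and the cell division genes of -0.30, while the other lists outside the network have medians between -0.13 and 0.09.

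Of 16 tested genes that Myc is known to repress, 4 were higher and 3 lower (list median 0.09), close to the 21.8% and 20.8% of all tested genes. *Cebpa*, the granulocyte and monocyte regulator, fell (log2 fold change -1.38, SE 0.18, edgeR adjusted p = 0.000405), and *Ndrg1*, a stress-responsive gene (0.44, SE 0.08, edgeR adjusted p = 0.0022), and *Cdkn1c*, the p57 cell cycle inhibitor of quiescent stem cells (1.49, SE 0.28, edgeR adjusted p = 0.00231), rose. Of 30 cell division genes, 20 fell and 0 rose in edgeR's test (list median -0.30), against 20.8% lower and 21.8% higher among all tested genes, with 0 higher also at an unadjusted p under 0.05, with DESeq2 and with limma-trend. They were led by *Ccne1*, cyclin E1 (-2.23, SE 0.17, edgeR adjusted p = 9.33e-05), *Rrm2*, a ribonucleotide reductase subunit (-0.71, SE 0.11, edgeR adjusted p = 0.000808), and *Cdc6*, which licenses replication origins (-0.67, SE 0.10, edgeR adjusted p = 0.000896). With library totals 13 of the 30 fell, and without Zeb1-/- EpCAM+ replicates 1 and 4, 12 did. By the marker counts given above, more neutrophil, monocyte and erythroid markers were lower than higher in Zeb1-/- EpCAM+ libraries. Their part in the *Cebpa* difference and in the cell division counts was not tested. By Ki67 and DAPI staining, the authors found cell cycle status unchanged with EpCAM in Zeb1-/- hematopoietic stem cells, a narrower gate than LSK.

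Across the 8 libraries, the tested protein-coding genes whose log2 CPM was most like that of *Myc* were *Jade3* (Pearson r = 0.978), *Gcsh* (r = 0.975) and *Set* (r = 0.971), the highest of 11735 genes. With each fraction's mean removed, r was 0.970, 0.951 and 0.949 for these 3 genes. For *Mycl* they were *Pirb* (r = 0.996), *Leprotl1* (r = 0.994) and *Cldn1* (r = 0.993), and r was 0.990, 0.974 and 0.979 with the fraction means removed. *Cldn1* gave 35.0, 2.66, 11.6 and 38.9 CPM in Zeb1-/- EpCAM+ replicates 1 to 4, high in replicates 1 and 4 as *Mycl* was. For *Mlx*, the called member with the most negative log2 fold change, they were *4833439L19Rik* (r = 0.982), *Arfgap3* (r = 0.967) and *Xrcc1* (r = 0.964). The 8 points of each correlation share libraries and depth and fall into 2 fractions, and the genes were picked as the highest, so r only describes them.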

How the data were processed

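RNA was amplified with SMART-Seq v4, and NEBNext Ultra libraries were sequenced as 150-bp paired ends. According to the submitters' processing notes, STAR 2.6.1d, featureCounts 1.5.0-p3 and DESeq2 1.20.0 were used with GRCm38.p6. The annotation release, strandedness and treatment of reads that map to several genes are not given in the sources used here. The authors deposited whole-number read counts per gene without normalization, which all tests use. They also deposited FPKM values, used here only to check the order of levels and the repressor to *Myc* ratio, and a gene length, which is a median of 2.25 times the length their FPKM imply. Further columns hold fold changes and p-values from the authors' comparisons and were not used.

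Tests were made with edgeR 4.0.16 under R 4.3.3, with DESeq2 1.42.0 and limma 3.58.1 for alternatives, and figures with matplotlib 3.10.9 under Python 3.11.15. Genes were kept by filterByExpr, scaled by TMM and compared with edgeR's two-sided quasi-likelihood test (4 libraries per fraction, Benjamini-Hochberg adjustment over all 13560 tested genes, threshold 0.05). SE were derived from the F statistic, and log2 CPM used a prior count of 2. The procedure was tested on simulated counts. Reads carry no molecular identifiers, so counts understate their uncertainty, and depth was 14114491 to 17073546 reads per library. Members, lists and tests were chosen with earlier results of these data known. Named genes are the 10 members, *Epcam*, *Zeb1*, up to 3 genes with the smallest adjusted p per list and markers needed to describe a cell type. The 3 genes most like *Myc* are also named, as are those most like the called members with the highest and the most negative log2 fold change. *Kit* and others stated as such were added after their values were seen.

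The replicate numbers pair the libraries. Same-numbered libraries deviated together from their fraction means (r across genes 0.205 to 0.356 in 4 pairs, against -0.216 to 0.0396 in the 12 other pairs), and the labels do not say what they share. No 2 libraries of a fraction were duplicates (chi-square per degree of freedom 10.6 to 101). Alternatives were DESeq2, limma-trend, 3 other scalings, 2 other filters, the replicate block, each library left out, and, chosen after seeing the data, leaving out the 2 Zeb1-/- EpCAM+ libraries rich in dendritic cell markers and FPKM in the repressor ratio.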

Additional observations from a re-analysis of the deposited data

Results flagged for a closer look

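Within a fraction, 1 library lay far from the other 3 in 2 of the 26 sets of 4 values examined, where chance marks about 1 in 20. *Mycn* reached 64.8 CPM in Zeb1-/- EpCAM+ replicate 3, against 42.8, 44.8 and 45.7 CPM in the others, a gap of 0.868 of the whole range. The log2 ratio of the summed Mxd genes and *Mnt* to *Myc* was -2.80 in Zeb1-/- EpCAM- replicate 1, against -3.35, -3.31 and -3.28 in the others, a gap of 0.870 of the range.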

How the results depend on the processing

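Of the 10 members, 5 (*Mycn*, *Mycl*, *Mxd1*, *Mxd3* and *Mlx*) kept their direction and their call in every alternative that could be run. *Mycl* could not be tested with a filter of 10 counts in every library. *Myc* lost its call in 6 of 17 alternatives and *Max* in 10 of 17, with the direction kept, and the cause was not tested. *Mnt* gained a call with library totals (adjusted p = 0.0356), upper-quartile scaling (adjusted p = 0.0337), the replicate block (adjusted p = 0.0217) and without Zeb1-/- EpCAM- replicate 3 (adjusted p = 0.0418). The replicate block changed no other member's call and gave 8 called members and 6818 called genes, against 7 and 5779. The log2 fold change of *Mxi1* changed sign with a filter of 10 counts in every library (0.018), library totals (0.074) and upper-quartile scaling (0.079), without a call, and ran from -0.095 to 0.071 with 1 library left out, and that of *Mxd4* ran from -0.0086 to 0.23. With 1 library left out, 4662 to 6039 genes differed, 5 to 7 members differed, 4 to 5 were higher and 1 to 3 lower. Library totals, upper-quartile scaling and leaving out Zeb1-/- EpCAM+ replicates 1 and 4 each left 1 lower member, and the last, with fewer libraries, left 3675 called genes. With FPKM 10 of 20 places in the order of levels were the same, because the 2 length measures differ. Depth limits *Mycl* in Zeb1-/- EpCAM- libraries, where 1 to 19 reads were counted.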
